A study of Arabidopsis with 8 samples.

Results

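The salt response of Ler leaves was read from 4 of the 8 arrays of the series, 2 for Ler salt and 2 for Ler control. Ler (Landsberg erecta) is a laboratory strain of Arabidopsis thaliana that carries the erecta mutation, and both groups share it. Seedlings 10 days old were moved to MS plates that held 100 mM NaCl (Ler salt) or no added salt (Ler control), and leaves of at least 30 seedlings were pooled from a plate 4 days after the move, soon after the onset of light. The other 4 arrays, 2 for Sha salt and 2 for Sha control, came from the Shakdara ecotype (Sha) under the same treatments. They entered the estimate of the spread and the test of where the Ler response differed from that of Sha. The 2 arrays of a group are biological replicates, each a pool from 1 plate, so the p-values measure the spread between such pools.

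Sodium chloride acts on a plant as an osmotic stress that withdraws water and as an ionic stress that loads cells with sodium. The hormone abscisic acid (ABA) carries much of the osmotic signal: it binds PYR/PYL receptors, which then hold back clade A PP2C phosphatases, and the freed SnRK2 kinases switch on bZIP factors and their stress genes. Leaves under salt are known for making protective proteins and compatible solutes, for growing more slowly and for losing chlorophyll early.

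Every level below is a log2 signal relative to the 75th percentile of its own array, so that 0 is a signal equal to that percentile, and a log2 change is the mean of the Ler salt arrays minus the mean of the Ler control arrays. Levels of different genes are not compared with each other, because probes differ in brightness. A probe was tested if both arrays of Ler salt, of Ler control or of both read it well above background, which held for 33021 probes, and 28748 of them were matched to 20786 loci. A gene is represented by its brightest tested probe, and it rose or fell where its change exceeded 2-fold with an adjusted p below 0.05 in limma (Benjamini-Hochberg, all 33021 probes). The array of Ler control replicate 1 was the dimmest, with a 75th percentile 57.9 times its local background, against 101.8 to 126.5 times on the other 3 Ler arrays. Replicate arrays correlated with r = 0.996 over probes in Ler salt and 0.994 in Ler control, and their median SD was 0.081 in Ler salt and 0.083 in Ler control.

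Over the transcriptome, 4194 probes rose and 5039 fell in Ler salt, 12.7% and 15.3% of those tested, or 28.0% in either direction. Counted by locus, 2747 rose (13.2%) and 3198 fell (15.4%), 28.6% in either direction, and the median log2 change of all tested loci was -0.07. These shares are the background for every gene group below. Where both arrays of a group read background, their readings were set to the lowest signal that counts as well above it. Loci at background on 1 array of a group kept their measured change. On that basis 1122 loci rose and 900 fell by more than 4-fold, 296 rose and 80 fell by more than 16-fold, and 68 rose and 3 fell by more than 64-fold. Within the tested set 527 loci were well above background on both Ler salt arrays and on no Ler control array, and 469 of them were called as rises. The opposite pattern held for 176 loci, of which 171 were called as falls. Such loci entered the tested set through their brighter group alone, which largely fixed their direction, so these counts lend the calls no support. Each slide carried 1 Ler salt and 1 Ler control array with the same replicate number. All 9233 called probes changed in the same direction within both slides, which follows from their groups not overlapping. Of these probes 8398 changed by more than 2-fold within each slide. The calls were made on the same arrays, so neither count is an independent check of them. Of 1442 called loci with several tested probes, 1246 had every probe called in the same direction and 3 had a probe called in the opposite one. In a bulk extract, here labelled as leaf, fewer cells of a type and less RNA per cell cannot be told apart.

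**Figure D1:**
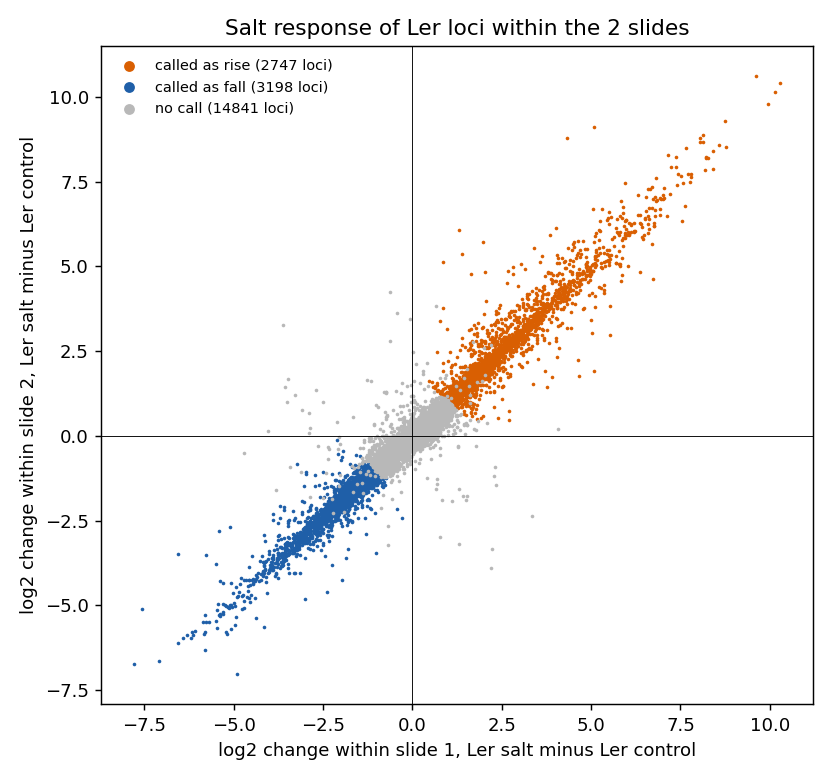
Log2 change of each tested locus within slide 2 (vertical axis) against its change within slide 1 (horizontal axis), Ler salt minus Ler control in both. Loci called as rises are orange, loci called as falls are blue, and loci without a call are grey. The 2747 rises lie in the upper right and the 3198 falls in the lower left.

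The gene with the largest measured rise, LTP4 (AT5G59310), encodes a small secreted lipid transfer protein. It stood at 4.43 and 4.51 on the Ler salt arrays, against -5.86 and -5.89 on the Ler control arrays, and the log2 change of 10.34 (SE 0.09, limma adjusted p = 2e-07) was the largest among the loci well above background on all 4 arrays. LTP4 lay far below the 75th percentile of the arrays without salt and above it with salt. The next 9 such loci rose by between 7.40 and 8.24. CSLG2, a cellulose synthase-like protein, was at 3.12 and 2.93 in Ler salt, against -5.15 and -5.28 in Ler control. LEA4-5, a late embryogenesis abundant (LEA) protein, had 2.48 and 2.40 in Ler salt, against -5.08 and -5.06 in Ler control. NRT1.8, a nitrate transporter that unloads nitrate from the xylem, read 2.63 and 2.65 in Ler salt, against -4.52 and -5.63 in Ler control, where the replicates lay further apart than for the others. The remaining ones were AT2G38240 (8.23), DIP2 (7.76), AT2G35070 (7.72), AT3G02480 (7.71), AT4G12735 (7.59) and AT5G50360 (7.40). The groups did not overlap for any of these, nor for 17891 of all tested loci (86.1%).

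Among loci at background without salt the largest rise was at least 696-fold, and EM1 and NRT2.6 are named here as members of gene lists. EM1, an embryo LEA protein, was at 0.86 and 0.80 in Ler salt, against measured values of -7.35 and -7.39 in Ler control, a rise of at least 231-fold (limma adjusted p = 2.8e-07). NRT2.6, a nitrate transporter, was at 0.76 and 0.59 in Ler salt, against -7.82 and -8.00 in Ler control, at least 207-fold. A fold given as "at least" replaces each dim reading by the smallest signal that still counted as well above background on its array, unless the reading itself was larger. Here and below, a p-value beside such a fold belongs to the change as measured, and the bound itself was not tested.

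Among loci well above background on all 4 arrays, the 10 largest falls ran from -5.28 to -6.34 and included genes of iron nutrition and of growth. IRT1 (AT4G19690), the main iron transporter of iron-starved roots, was at -3.23 and -3.42 in Ler salt, against 2.24 and 2.26 in Ler control, a log2 change of -5.58 (SE 0.08, limma adjusted p = 3.3e-07). NAS2, a nicotianamine synthase that makes a metal chelator, was at -3.42 and -3.47 in Ler salt, against 1.97 and 1.85 in Ler control. SAUR63, a small auxin-up RNA protein of cell expansion, was at -4.57 and -4.47 in Ler salt, against 0.73 and 0.78 in Ler control, and AT1G29450 fell by 5.35. CYP712A1, a cytochrome P450, fell by 5.59, and the other 5 were AT2G26695 (-6.34), AT1G19900 (-6.01), AT5G46900 (-5.99), AT1G13650 (-5.84) and AT1G52820 (-5.80).

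**Figure D2:**
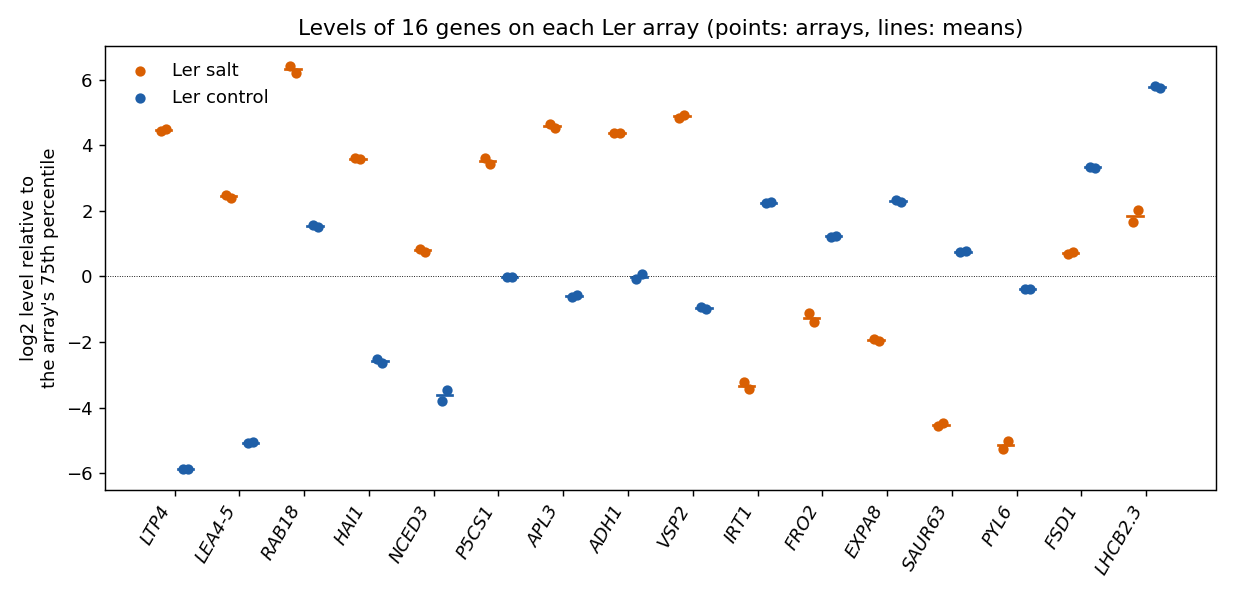
Log2 level relative to the 75th percentile of the array (vertical axis) of 16 genes on each Ler array, with Ler salt (orange) left of Ler control (blue) for each gene and 1 point per array. Genes from LTP4 to VSP2 rose and genes from IRT1 to LHCB2.3 fell, and the groups do not overlap for any of them.

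In the ABA pathway the PP2C repressors rose and no receptor did. All 9 tested clade A PP2C phosphatases, the repressors of ABA signalling, rose (median log2 change 3.18). HAI1 was at 3.60 and 3.58 in Ler salt, against -2.51 and -2.63 in Ler control, a change of 6.16 (SE 0.11, limma adjusted p = 4.2e-07). HAI3 was at 1.09 and 1.23 in Ler salt, against -5.01 and -5.0 in Ler control. The longer known members ABI1, ABI2 and HAB1 rose by 2.12, 3.18 and 2.35, and AHG1, which was at background without salt, by at least 19.0-fold. Of 9 tested receptors 4 fell (median -0.89). PYL6 was at -5.25 and -5.01 in Ler salt, against -0.38 and -0.40 in Ler control, a change of -4.74 (SE 0.12), while PYL4 fell by 2.73 and PYL2 by 2.03. PYR1, with 1.96 and 1.74 in Ler salt and 2.82 and 2.32 in Ler control, had a change of -0.72 that missed the 2-fold limit.

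Between receptor and target, 2 of the 10 SnRK2 kinases rose and 2 fell (median 0.20). OST1 (SnRK2.6), the kinase that closes stomata, rose by 1.12 and SNRK2.7 by 1.48, whereas SNRK2-8 and SNRK2.5 fell by 1.02 and 1.18. The OST1 call was lost without Ler control replicate 1, that of SNRK2-8 with median scaling and that of SNRK2.5 with normexp background correction. Of 5 group A bZIP factors, ABI5, which restrains germination and seedling growth, was at -1.69 and -1.51 in Ler salt, against -4.89 and -4.77 in Ler control, a change of 3.23 (SE 0.09). ABF2 rose by 1.49, and ABF1 (0.99), ABF4 (0.45) and ABF3 (0.38) stayed under 2-fold. NCED3, which encodes the rate-limiting dioxygenase of ABA synthesis under drought, was at 0.83 and 0.76 in Ler salt, against -3.81 and -3.45 in Ler control (change 4.43, SE 0.16, limma adjusted p = 3.1e-06), and 4 of the 8 tested synthesis genes rose, NCED5 (1.22) and ABA3 (1.08) among them. The ABA3 call was lost without Ler salt replicate 2, without Ler control replicate 1 and with normexp, which called 2 synthesis genes. Among the 4 ABA 8'-hydroxylases, which degrade ABA, CYP707A1 rose by 4.27, CYP707A4 by 2.62 and CYP707A3 by 1.21. CYP707A2, the form best known from imbibed seeds, fell by 1.79.

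Genes of protective proteins rose. Of 14 dehydrins and other LEA proteins, which coat membranes and proteins in drying cells, 11 rose and none fell (median 3.65). RAB18, a dehydrin and classical ABA marker, was at 6.42 and 6.22 in Ler salt, against 1.56 and 1.5 in Ler control, and LEA7 was at 5.71 and 5.59 in Ler salt, against -0.41 and -0.42 in Ler control. GEA6 (also called EM6), a seed LEA protein, rose by 6.86 and ERD10, a dehydrin of vegetative tissue, by 1.92. All 8 stress marker genes rose (median 2.91). RD20, a caleosin of lipid bodies, was at 5.09 and 4.85 in Ler salt, against -1.33 and -1.30 in Ler control, and LTI78 (RD29A) was at 4.84 and 4.40 in Ler salt, against -0.20 and -0.47 in Ler control. Of 6 type 1 lipid transfer proteins, LTP3 (6.25) and LTP2 (4.92) joined LTP4, and the constitutive forms LP1 (0.29), LTP6 (-0.18) and LTP5 (-0.63) were not called.

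Upstream of these genes, all 7 DREB and CBF factors, which bind the dehydration and cold element, rose (median 3.91). DREB2B was at 0.31 and 0.46 in Ler salt, against -3.71 and -3.49 in Ler control. CBF1, best known from cold acclimation, rose by 4.03, CBF2 by 3.91 and DREB2A, the drought and heat factor, by 2.82. In a list of 24 NAC, MYB, HD-Zip and zinc finger factors of the stress response, 19 rose and 2 fell (median 2.20). NAC019 was at 3.77 and 3.55 in Ler salt, against -2.44 and -2.49 in Ler control, MYB102 rose by 5.29, NAC3 by 4.32, and the HD-Zip factors HB-7 and HB-12, which slow growth under water deficit, by 3.66 and 3.23. MYB60, a guard cell factor that favours open stomata, fell to -2.71 and -2.74 in Ler salt, against 0.26 and 0.34 in Ler control (change -3.03, SE 0.09).

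Genes known from ripening seeds were raised in Ler salt leaves. The list of 10 seed markers holds the 2S albumins SESA1 to SESA4, the 12S cruciferins, oleosins of oil bodies and the peroxiredoxin PER1, and all 10 were called as rises. On the Ler salt arrays all 10 were well above background, against none on the array of Ler control replicate 1 and 1 on that of replicate 2. All 10 thus entered the tested set through the Ler salt arrays alone, which largely fixed their direction. These counts therefore lend the calls no support. SESA3 was at -0.78 and -0.66 in Ler salt, against -8.81 and -9.45 in Ler control, a rise of at least 79.2-fold (limma adjusted p = 9.9e-07). CRA1, a 12S cruciferin, was at -1.39 and -1.20 in Ler salt, against -8.76 and -9.43 in Ler control, at least 53.1-fold. CRU3 rose at least 39.5-fold and OLEO1 at least 23.8-fold, and the other members measured at background without salt rose by at least 10.4 to 16.7-fold. With normexp background correction all 10 were still called, with a median log2 change of 2.60 in place of 5.57, so that these folds depend on the background correction. No member was well above background on all 4 arrays. OLEO2, well above background on 1 control array, rose by 4.21 on the log2 scale. Their summed level, on a linear scale where 1 is the 75th percentile of an array, was 2.08 and 2.23 in Ler salt, against 0.037 and 0.039 in Ler control.

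In Sha the same 10 genes had a median log2 change of 0.08, and the difference between the Ler and Sha changes was called for 9 of them. As measured it was 10.05 for SESA3, 7.46 for CRA1 and 6.90 for CRU3, and since these include signals at background, their sizes are not exact. Of the 10 genes, 8 were well above background on each Sha salt array, against 8 and 10 on the Sha control arrays. CRU3, for example, was at -2.15 and -1.91 in Sha salt, against -2.11 and -1.90 in Sha control. A second list of 11 seed genes was drawn up after these values were seen, and 7 of it were tested. SESA5, a further albumin, rose by at least 16.9-fold and CLO1 (ATS1), a caleosin, by at least 5.92-fold, and WRI1, a factor that directs oil synthesis, rose by 1.53. DOG1, a regulator of seed dormancy, fell by 3.68 and LEC2, a factor of embryo development, fell by at least 2.68-fold, while the oleosin OLEO4 (-0.09) and ABI3 (0.85), a factor of seed maturation at background in Ler control, were not called. The CLO1, DOG1 and LEC2 calls were lost with normexp, which gave LEC2 a change of 0.26, and ABI3 was called higher without Ler control replicate 1. Whether seed material was in the Ler salt pools was not tested.

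**Figure D3:**
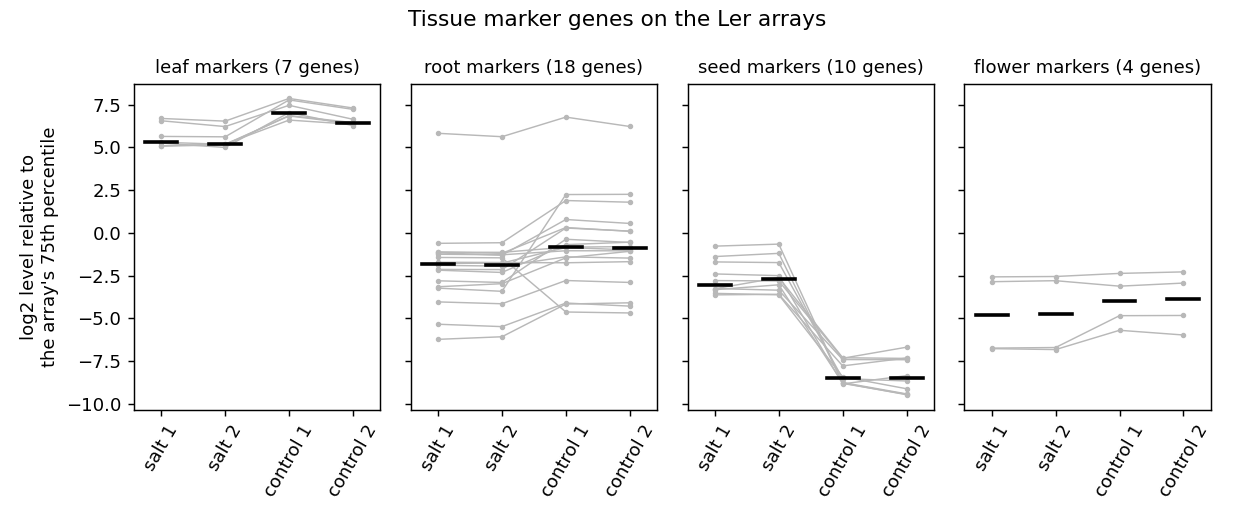
Log2 level relative to the 75th percentile of the array (vertical axis) of tissue marker genes on the 4 Ler arrays, with the Ler salt arrays left of the Ler control arrays in each panel. Each grey line joins 1 gene across the arrays and the black bars are medians. The 10 seed markers lie between -9.47 and -6.69 in Ler control and between -3.63 and -0.66 in Ler salt, whereas leaf and root markers are on average lower in Ler salt.

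Markers of green tissue and of roots were both present. All 7 leaf markers were well above background on all 4 arrays, and their summed level was 394 and 358 in Ler salt, against 1090 and 740 in Ler control. All 18 root markers were above background as well, with summed levels of 61.4 and 53.9 in Ler salt and 126.5 and 91.1 in Ler control. Of these root genes 11 fell and 1 rose (median -1.30), and with normexp 8 fell (median -0.80). Of the leaf markers 5 fell (median -1.38), and with quantile normalization 1 did (median -0.65). CASP1, a scaffold of the endodermal barrier, was at -0.61 and -0.58 in Ler salt, against 1.89 and 1.79 in Ler control. PYK10, a root and hypocotyl glucosidase, was at 5.83 and 5.63 in Ler salt, against 6.78 and 6.23 in Ler control, and was not called. WOX5, which marks the root stem cell niche, rose by 3.21. The part of root RNA in any change below was not tested, and IRT1 is itself a member of the root list. Among 4 flower markers AG fell by 1.89, a call lost with normexp, and none rose.

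Of 10 genes of sodium transport 1 rose and 2 fell (median 0.23). NHX2, a vacuolar sodium and potassium exchanger, rose by 1.19, and HKT1 and NHX4 fell. SOS1, the plasma membrane sodium exporter, was at -1.39 and -1.13 in Ler salt, against -1.65 and -1.45 in Ler control, a change of 0.29 (SE 0.17, limma adjusted p = 0.18). The kinase gene SOS2 (-0.70), its calcium sensor SOS3 (0.18) and NHX1 (0.82) all missed the 2-fold limit. HKT1, which retrieves sodium from the xylem sap, was at background with salt: it was measured at -9.57 and -9.06 in Ler salt, against -4.26 and -4.10 in Ler control, a fall of at least 10.4-fold (limma adjusted p = 2.2e-05). With normexp background correction no member of the list was called lower, and the change of HKT1 was -0.65. The NHX4 call was also lost with median scaling. Among 9 potassium channels and carriers 1 rose and 3 fell. GORK, the outward channel of guard cells, rose by 1.59, SKOR, which loads potassium into the xylem, fell by 3.21, and HAK5, the high affinity carrier, had a change of -0.11.

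Compatible solutes were represented by proline, raffinose sugars, trehalose and polyamines. P5CS1, the rate-limiting enzyme of proline synthesis under stress, was at 3.62 and 3.43 in Ler salt, against -0.02 in both Ler control arrays (change 3.55, SE 0.09, limma adjusted p = 9.7e-07), P5CS2 rose by 1.49, and 5 of 9 proline genes rose and none fell (median 1.30). The breakdown enzyme ALDH12A1 also rose, by 1.59, while ERD5, the proline dehydrogenase of the first breakdown step, had a change of 0.64. GolS2, a galactinol synthase of the drought response, was at 1.57 and 1.54 in Ler salt, against -2.91 and -2.78 in Ler control. The raffinose list was split, with 3 rises among the galactinol synthases (GolS2, GolS4, GolS1) and falls of 1.32 for GolS3, 1.66 for DIN10 and 2.66 for STS. Of 15 trehalose genes 3 rose and 4 fell: TPPD, a trehalose phosphatase, rose by 2.87 and TPPH fell by 4.35. In polyamine synthesis the paired arginine decarboxylases moved in opposite directions, with a change of 1.57 for ADC2, the stress-inducible form, and of -1.15 for ADC1. SPDS3 (spermine synthase) rose by 2.15, and ACL5 and BUD2, which serve thermospermine synthesis in the xylem, fell by 2.33 and 2.48. The calls of GolS3, STS and BUD2 were lost with normexp, which left 1 fall in the raffinose list, and that of ADC1 with quantile normalization.

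Starch genes rose on the breakdown side and in single synthesis genes. Of 14 breakdown genes 8 rose and none fell (median 1.36). The beta-amylase gene BAM5 was at 0.37 and 0.19 in Ler salt, against -4.49 and -4.78 in Ler control, ISA3, a debranching enzyme, rose by 3.49 and AMY1, an alpha-amylase, by 3.0. Of 12 synthesis genes 3 rose and 1 fell (median 0.37). APL3 and APL4, ADP-glucose pyrophosphorylase subunits known from sink tissue, were raised most, with APL3 at 4.66 and 4.54 in Ler salt, against -0.62 and -0.58 in Ler control (change 5.19, SE 0.10). APL4 rose by 5.24. APL1, the main leaf subunit, fell by 1.77. Among 16 sugar transporters 5 rose and 3 fell. MSS1 (STP13), a hexose carrier that recovers sugars from the cell wall, rose by 3.20 and STP1 fell by 1.44. SUC2, the sucrose loader of the phloem, had a change of 0.90.

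Among genes for enzymes that burn amino acids, fatty acids and aldehydes, rises outnumbered falls. Of 14 genes for breakdown of branched-chain amino acids, lysine and related compounds 7 rose and 1 fell (median 0.99), among them MGL (methionine gamma-lyase, 3.40), BCAT-2 (2.64) and the tyrosine aminotransferase TAT7 (2.39). In the list of the glyoxylate cycle and fatty acid beta-oxidation 6 of 10 rose and none fell. MLS, malate synthase, was at -2.03 and -2.04 in Ler salt, against -4.95 and -5.04 in Ler control, and ICL, isocitrate lyase, rose by 1.63, whereas PCK1, which starts sugar production from oil reserves, changed by 0.57. Fermentation and aldehyde dehydrogenase genes rose in 6 of 9 cases (median 2.01). ADH1, alcohol dehydrogenase, was at 4.37 on both Ler salt arrays, against -0.07 and 0.06 in Ler control (change 4.38, SE 0.09, limma adjusted p = 5.4e-07), ALDH2B7 rose by 3.17, ALDH7B4 by 2.95 and the pyruvate decarboxylase AT4G33070 by 2.22.

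Photosynthesis genes were lower as a group, with no rise among them. Of 21 antenna proteins, which bind chlorophyll around the photosystems, 14 fell (median -1.45), as did 25 of 29 subunits of the photosystems and the electron chain (median -1.48), 10 of 16 Calvin cycle enzymes (median -1.24) and all 8 photorespiration enzymes (median -1.65). LHCB2.3 was at 1.67 and 2.02 in Ler salt, against 5.80 and 5.75 in Ler control, a change of -3.94 (SE 0.13, limma adjusted p = 2.2e-06). LHCB4.2 fell by 2.40, LHCB3 by 1.55, PSAD-2, a subunit of photosystem I, by 2.47 and PSBQ-2, of the oxygen-evolving complex, by 2.46. In carbon fixation PRK, phosphoribulokinase, was at 2.17 on both Ler salt arrays, against 4.27 and 4.30 in Ler control, and HCEF1 (1.99) and SBPASE (1.88) fell by similar amounts. Rubisco activase RCA was at 5.26 and 5.0 in Ler salt, against 7.04 and 6.28 in Ler control, a fall of 1.53. RBCS1A, the main small subunit of Rubisco, was at 6.70 and 6.54 in Ler salt, against 7.87 and 7.31 in Ler control, and its change of -0.97 missed the limit. It was called lower with normexp (-1.004). Its change was -1.05 without Ler salt replicate 1 and -1.25 without Ler control replicate 2. HPR and GOX2 of photorespiration each fell by 2.16.

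The size of this fall depended on the scaling between arrays. Of the 74 genes 69 were higher on the dim array of Ler control replicate 1 than on that of replicate 2. Within slide 1 the medians were -1.54 for the antenna proteins, -1.65 for the photosystem subunits, -1.42 for the Calvin cycle and -1.76 for photorespiration, and within slide 2 they were -1.23, -1.37, -1.01 and -1.55. With quantile normalization all 4 medians stayed negative, at -0.76 for the antenna proteins, -0.91 for the photosystem subunits, -0.54 for the Calvin cycle and -1.37 for photorespiration, but the numbers called lower were 7, 12, 4 and 5, and the calls of LHCB3 and RCA were lost.

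Of 17 chlorophyll synthesis genes 9 fell and 1 rose (median -1.05, or -0.68 with quantile normalization): GUN4 fell by 1.79, CHLM by 1.56 and CHLI2 by 1.53, while PORA, the protochlorophyllide reductase of seedlings in the dark, was at 0.86 and 0.96 in Ler salt, against -1.54 and -1.51 in Ler control. Of 7 breakdown genes 3 rose and none fell. NYE2, a magnesium dechelatase listed as AT4G11910, was at 0.54 and 0.65 in Ler salt, against -2.93 and -2.94 in Ler control (change 3.52, SE 0.07), PPH rose by 1.29 and ACD1 (PAO) by 1.18. NYE1 had a change of 0.72. Senescence genes rose in 11 of 14 cases (median 1.73). SAG29, a sugar exporter of ageing leaves, was at 5.67 and 5.48 in Ler salt, against 0.03 and -0.12 in Ler control, DIN2 rose by 3.83 and NAP, a NAC factor that promotes leaf senescence, by 1.08, and SEN1 fell by 1.25. None of 13 autophagy genes was called (median 0.08).

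Among growth genes the small auxin-up RNA (SAUR) list had the lowest median. Of 13 tested SAUR genes 10 fell and 1 rose (median -3.18). SAUR19 was at -6.26 and -6.29 in Ler salt, against -2.48 and -2.41 in Ler control, a change of -3.83 (SE 0.07, limma adjusted p = 4.4e-07), and SAUR20 fell by 3.61. SAUR36, which is tied to leaf senescence, was the member that rose, by 1.32. SAUR genes are similar in sequence, so probes can share signal between copies, and with normexp background correction 6 of the 13 were called lower (median -1.58) and SAUR19 was not. Among 21 Aux/IAA repressors of auxin signalling 9 fell and 3 rose (median -0.32), from IAA33 (-2.84) and IAA6 (-2.15) to IAA11 (1.30). The IAA33 and IAA6 calls were lost with normexp, which called 5 of the list lower.

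Cell wall genes changed in both directions. Of 16 alpha expansins, which loosen walls, 3 rose and 3 fell. EXPA8 was at -1.90 and -1.96 in Ler salt, against 2.34 and 2.28 in Ler control (change -4.24, SE 0.07), and EXPA10 was at 3.91 and 3.74 in Ler salt, against -0.68 and -0.66 in Ler control (change 4.49, SE 0.10). Of 29 xyloglucan endotransglucosylases, which cut and rejoin wall polymers, 7 rose and 11 fell (median -0.78, or -0.41 with normexp). XTR6 rose by 5.04, XTH11 by 4.88 and XTH25 by 4.15, and XTH21 fell by 3.92, XTH15 by 2.90 and XTH6 by 2.65. None of 9 cellulose synthases was called. Aquaporins fell in 7 of 22 cases and rose in 4. TIP2;2 was at 1.86 and 1.94 in Ler salt, against 4.40 and 4.21 in Ler control, DELTA-TIP fell by 2.13 and GAMMA-TIP by 1.11, PIP1;4 rose by 1.34, and PIP2A had a change of -0.27. With quantile normalization 4 aquaporins fell, and GAMMA-TIP was not among them. Without Ler control replicate 1, 1 expansin was called higher.

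All 16 mitotic cyclins and kinases had negative changes (median -0.78, or -0.46 with normexp), and 5 passed the test, CYCB1;3 (-1.34), CYCB1;4 (-1.32) and CYCA1;1 (-1.29) among them. All 11 DNA replication genes were negative (median -1.07), and 7 fell, with MCM5 at -0.77 and -0.81 in Ler salt, against 0.59 on both Ler control arrays. With normexp background correction 3 of these 11 were called. Ribosomal proteins separated by compartment. Of 36 cytosolic ones RPL3B alone was called (-2.33), and their median was -0.33. Of 7 plastid ones 6 fell (median -1.21), such as RPL27 (-1.49) and RPS9 (-1.23), although 3 were called with quantile normalization. The plastid genes were set apart from the cytosolic ones after the values were seen.

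**Figure D4:**
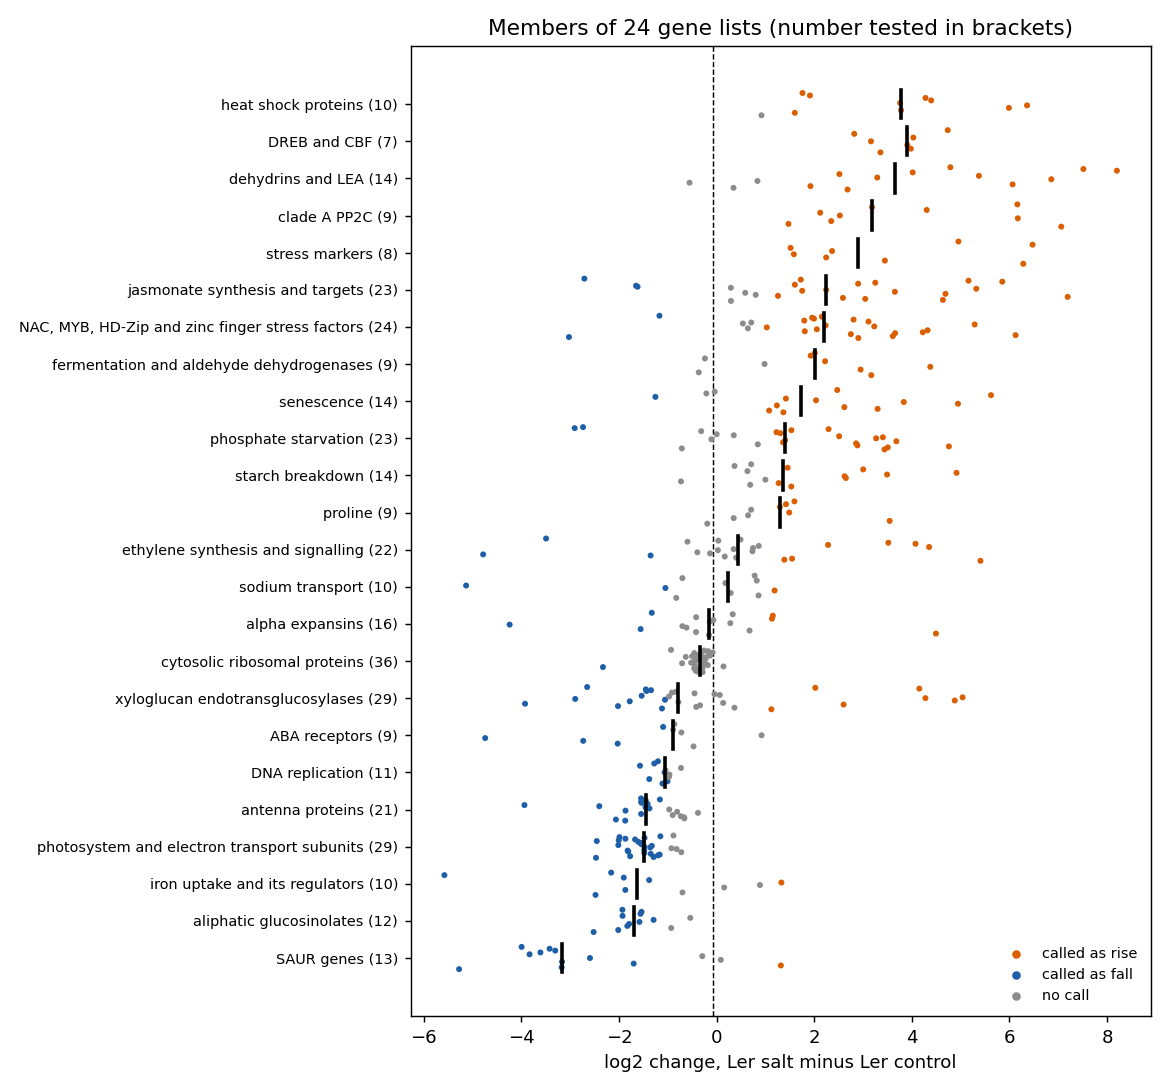
Log2 change, Ler salt minus Ler control (horizontal axis), of every tested member of 24 gene lists (1 point per gene), with rises in orange, falls in blue and genes without a call in grey. The black bar is the list median and the dashed line is the median of all tested loci, -0.07. Heat shock proteins, DREB and CBF factors and LEA proteins lie furthest right and SAUR genes furthest left.

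Genes of iron uptake mostly fell and those of the phosphate starvation response mostly rose. Of 10 genes for iron uptake and its control 6 fell and 1 rose (median -1.63). Next to IRT1, the ferric reductase FRO2 was at -1.12 and -1.4 in Ler salt, against 1.20 and 1.23 in Ler control (change -2.48, SE 0.12), and BHLH101, an iron deficiency factor, fell by 2.16, while PYE, a regulator of iron distribution, rose by 1.33. In iron storage and movement 5 of 12 fell and none rose. NAS1 fell by 2.33 and the ferritin FER3 by 1.52, and the ferritin FER1 had a change of -0.66. With normexp background correction 4 of the 10 uptake genes were called lower (median -0.85), without BHLH101.

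Genes of the phosphate starvation response rose in 15 of 23 cases and fell in 2 (median 1.4). RNS1, a secreted ribonuclease, was at 3.02 and 3.17 in Ler salt, against -1.72 and -1.61 in Ler control, and PS2, a phosphatase, was at 3.34 and 3.26 in Ler salt, against -0.13 and -0.29 in Ler control. SPX3 rose by 3.68 and SPX1, a phosphate sensor, by 1.53. The phosphate carriers of the list went the opposite way: PHT1;1 was at -0.28 and -0.42 in Ler salt, against 2.76 and 2.35 in Ler control (change -2.91, SE 0.17), and PHT1;2 fell by 2.74.

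For nitrate, 4 of 12 genes rose and 3 fell. NRT1.7, which moves nitrate out of older leaves, was at 4.18 and 4.32 in Ler salt, against 0.82 and 0.98 in Ler control, and NRT2:1, a high affinity carrier, rose by 1.44. NIA1, a nitrate reductase, was at 1.81 and 1.87 in Ler salt, against 3.78 and 3.79 in Ler control, NIR1 fell by 1.22 and NRT1.5, which loads the xylem, by 1.24. NIA2, the major reductase, changed by -0.07. Downstream, the plastid glutamine synthetase GS2 fell by 1.63 and the glutamate synthase GLU1 by 1.77, whereas the cytosolic GLN1.3 rose by 1.79 and the asparagine synthetase ASN1 by 1.23.

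Among hormone pathways other than ABA, jasmonate genes rose most often. Of 23 genes 16 rose and 3 fell (median 2.24). VSP2, a storage protein and wound marker, was at 4.85 and 4.91 in Ler salt, against -0.94 and -1.0 in Ler control (change 5.85, SE 0.08, limma adjusted p = 2.8e-07), VSP1 rose by 5.16, the repressor JAZ7 by 5.32 and the synthesis gene AOS by 1.72. PDF1.2, a defensin of the joint jasmonate and ethylene branch, fell to -1.83 and -1.69 in Ler salt, against 1.01 and 0.89 in Ler control. The allene oxide cyclase copies AOC1 and AOC2 fell by 1.62 and 1.65. In ethylene synthesis and signalling 7 of 22 rose and 3 fell. ACS2, which makes the ethylene precursor, was at 1.39 and 1.4 in Ler salt, against -4.12 and -3.90 in Ler control, and ERF1 rose by 4.35, while normexp called none of the list lower. In the salicylic acid list 2 of 12 rose and 2 fell. FMO1, which makes the immune signal N-hydroxypipecolic acid, rose by 4.13, EDS1 and WRKY70 fell by 1.39 and 1.27, and the pathogenesis-related genes PR1 (0.67), BGL2 (-0.02) and PR5 (0.71) were not called.

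Of 19 genes for cytokinin breakdown and response 7 fell and 1 rose (median -0.80, or -0.32 with normexp). The cytokinin oxidases CKX1, CKX4 and CKX6 fell by 2.83, 2.01 and 1.77, and CKX5 rose by 1.25. The CKX1 call was lost with normexp, as were those of GA20OX1 and BAS1 below. Gibberellin genes were split, 2 higher and 2 lower of 10: GA2OX6, which inactivates the hormone, rose by 1.45, and GA20OX1, which makes it, fell by 1.73. Among 5 DELLA repressors RGL3 (1.53) and RGL2 (1.17) rose, and GAI (0.30), RGL1 (-0.03) and RGA1 (-0.39) did not pass. Of 9 brassinosteroid genes 2 rose and 2 fell, with BR6OX2, a late step of synthesis, at 1.51 and BAS1, an inactivating P450, at -2.34.

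Of 12 genes of aliphatic glucosinolates, defence compounds made from methionine, 10 fell and none rose (median -1.69). CYP79F1 was at 0.62 and 0.56 in Ler salt, against 2.70 and 2.52 in Ler control, CYP79F2 fell by 2.52 and their regulator MYB28 by 1.93, and the CYP79F2 call was lost with normexp. The 11 indole glucosinolate genes had 4 rises and 2 falls (median 0.10), with MYB122 at 2.94 and CYP81F3 at -1.37, and 1 fall without Ler control replicate 1 or with quantile normalization. Of 10 anthocyanin and flavonoid enzymes 5 rose and none fell (median 1.49). DFR was at 2.08 and 2.46 in Ler salt, against -0.74 and -0.32 in Ler control (change 2.80, SE 0.18), LDOX rose by 2.89 and UF3GT by 3.09, and TT4, the first committed enzyme, changed by -0.21. Of 12 regulators of the pathway 7 rose and 1 fell. Their median was 1.46, or 0.95 with members at background set to their bound, and 4 of the 9 well above background on all 4 arrays rose (median 0.45). PAP1 was at 2.58 and 2.42 in Ler salt, against -1.60 and -1.78 in Ler control, and MYB90 (PAP2) and MYB113, at background without salt, rose by at least 46.4-fold and 32.5-fold. MYBL2, a repressor of the pathway, fell by 1.61. Of 16 phenylpropanoid and lignin genes 1 rose and 2 fell. CER1, an enzyme of alkane wax synthesis, was at 3.13 and 2.95 in Ler salt, against 0.41 and 0.56 in Ler control, and 4 of 17 cuticle genes rose (2 with normexp) and 3 fell.

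Of 17 genes that scavenge peroxide and superoxide 4 fell and 1 rose (median -0.18). FSD1, a plastid superoxide dismutase, was at 0.68 and 0.75 in Ler salt, against 3.35 and 3.32 in Ler control, TAPX, the thylakoid ascorbate peroxidase, fell by 2.52 and APX2, a heat-inducible one, rose by 2.35. In the large family of tau and phi glutathione S-transferases 16 of 38 rose and 7 fell (median 0.19), from GSTU12 (4.63) and GSTU11 (4.32) to GSTF14 (-2.53). Heat shock genes rose. Of 12 heat shock factors 7 rose and none fell: HSFA2 was at -0.77 and -0.88 in Ler salt, against -5.23 and -5.44 in Ler control (change 4.51, SE 0.09), and HSFA6B rose by 3.16. Of 10 heat shock proteins 9 rose (median 3.77). ATHSP22.0, of the endoplasmic reticulum, was at 0.66 and 0.82 in Ler salt, against -5.40 and -5.10 in Ler control, HSP17.6II rose by 4.40, and HSP101, the disaggregase, had a change of 0.92.

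Of 16 clock genes 4 rose and none fell (median 0.29): PRR5 (1.30), PCL1 (1.19) and ELF4 (1.17) were the largest rises, and the core oscillator genes CCA1 (0.52), TOC1 (0.43) and LHY (-0.80) stayed under 2-fold at this single time of day. In flowering, FT, the mobile flowering signal, was at -5.77 and -5.59 in Ler salt, against -2.69 and -2.57 in Ler control (change -3.05, SE 0.09), its relative TSF fell by 2.35, and SPL5 and SPL4, factors of the adult phase, rose by 2.23 and 1.84. FLC, a repressor of flowering, had a change of -0.82. Both the FT and the TSF call were lost with normexp background correction. Of 9 genes of the stomatal lineage MUTE rose by 1.06, and SPCH and SDD1 fell by 1.07 and 2.04. The MUTE call was lost without Ler salt replicate 1, and that of SPCH without Ler control replicate 2 and with normexp.

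The test of the difference between the Ler and Sha changes called 2766 probes and 1677 loci, 8.38% and 8.07% of those tested, and 1108 of these loci were also called in Ler. At 606 of the 1108 the Ler change was the larger one or ran opposite to that of Sha, and at 502 it was the smaller one in the same direction. With normexp background correction the difference was called for 623 probes. Next to the seed genes, the jasmonate markers VSP2 and VSP1 had large differences. In the jasmonate list 5 of 23 genes had a called difference, 3 more positive in Ler and 2 more negative. VSP2 rose by 5.85 in Ler, against a change of 1.19 in Sha, a difference of 4.66 (limma adjusted p = 5.3e-05), and VSP1 by 5.16 in Ler, against 1.01 in Sha. Both were already higher in Sha without salt. VSP2 was at 1.89 and 2.02 in Sha control, against -0.94 and -1.0 in Ler control, and VSP1 at 2.29 and 2.37, against -0.58 and -0.72. DIN11, a dark-inducible oxygenase, rose by 4.94 in Ler, against 1.76 in Sha. In the opposite direction, AOC2 fell by 1.65 in Ler, against a change of 1.98 in Sha, and heat shock genes rose less in Ler: HSFA6B by 3.16, against 6.12 in Sha, and ATHSP22.0 by 5.99, against 8.14 in Sha, where its control arrays read background. For the heat shock proteins the difference was called for 7 of 10 tested genes, 6 of them with a smaller change in Ler. Cell wall genes had 7 called differences among 16 expansins and 7 among 29 xyloglucan endotransglucosylases, and in all 14 the Ler change was the more positive one. The 18 root markers, which include alpha expansins, had 6 called differences, and all 6 were more positive in Ler as well. Their median change was -1.30 in Ler and -2.53 in Sha. The part of root RNA in these differences was not tested. SAG29 rose by 5.62 in Ler, against 7.65 in Sha.

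**Figure D5:**
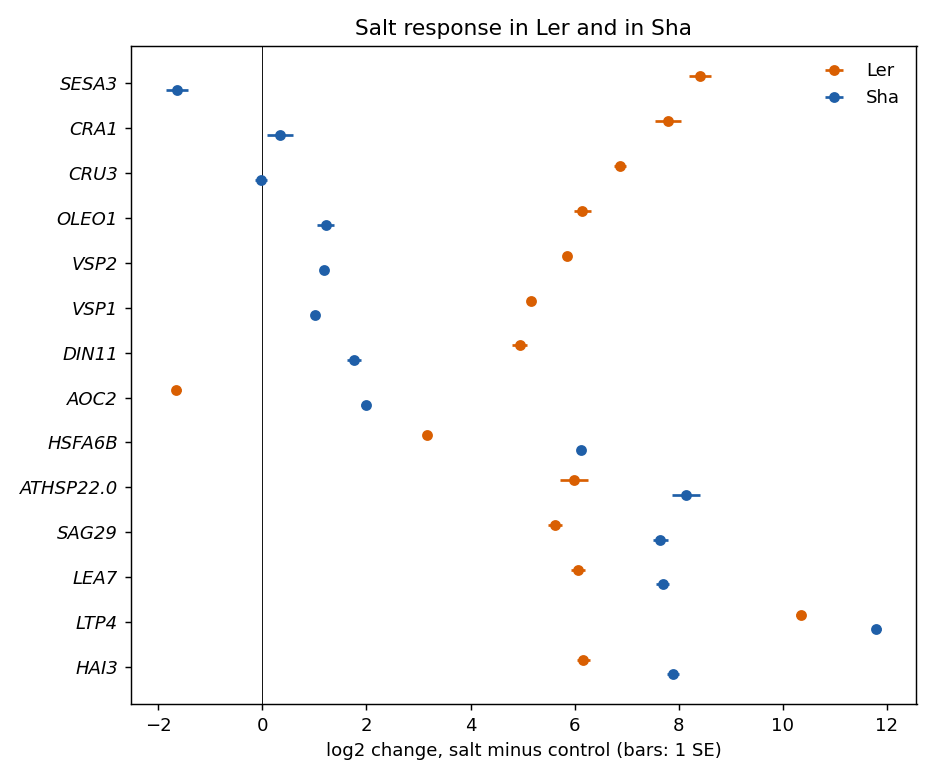
Log2 change with salt (horizontal axis) in Ler (orange) and in Sha (blue, drawn below) of 14 genes named in the text whose difference passed the test, with bars of 1 SE from limma. The 4 seed genes at the top read background in Ler control, and ATHSP22.0 in Sha control, so their changes are as measured and not exact. SESA3, CRA1, CRU3, OLEO1, VSP2, VSP1 and DIN11 lie further right in Ler, and AOC2, HSFA6B, ATHSP22.0, SAG29, LEA7, LTP4 and HAI3 further left.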

How the data were processed

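The 8 samples were 1-colour Agilent arrays. The authors extracted the spots with Agilent Feature Extraction (10.7.1.1 per the file headers), and the deposited intensity values (processed signals) are background-subtracted and detrended but not scaled between arrays. The files' column of probe flags was deposited with them. Here log2 processed signals minus each array's 75th percentile were fitted in limma 3.58.1 (R 4.3.3) as 4 groups of 2, after 62 outlier probes were left out. Probes that both arrays of a Ler group read well above background were tested, and calls needed a Benjamini-Hochberg adjusted p under 0.05 and more than 2-fold. Loci and symbols came from RefSeq accessions of the TAIR10.1 table. Near-identical copies may share probe signal. On simulated data with independent noise, 81 of 100 probes changed by 1.5 on the log2 scale and 93 of 100 changed by 3 were recovered over 33021 probes, with 6 false calls. Far fewer probes were changed there than the 28.0% called in the data, so these rates need not hold for the data. The members and the 71 gene lists were chosen with earlier results of these data known. Genes were named by a rule: up to 3 largest called rises and falls and 2 background-bound members per list, all of lists with up to 6 tested, set anchors, and the 10 largest rises and falls overall. Alternatives covered scaling, normexp with an offset of 50, filters, thresholds, blocks, moderation and single arrays. The number of arrays limits the precision.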

Additional observations from a re-analysis of the deposited data

Results flagged for a closer look

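For 65 of the 274 genes named above the Ler change differed from the Sha change by the limma test of the difference itself. A call needed an adjusted p under 0.05 over all tested probes and a gap of more than 2-fold. The Ler change was the more positive for 29 of the 65 and the more negative for 36. Over all tested loci 8.07% were called. The genes were named largely for the size of their Ler change, so their share is not comparable with that one. Apart from the bounds below, the single differences were not checked under other settings. Normexp background correction called 623 probes as different over all tested probes, in place of 2766. The Ler calls of IAA6, FT, TSF, BHLH101, CYP79F2, DOG1 and CLO1 were themselves lost with normexp. The values that follow are log2 differences as measured, Ler change minus Sha change, and where a group read background the size is not exact. No explanation of them was tested.

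Among seed genes the difference was 10.05 for SESA3, 7.46 for CRA1, 6.90 for CRU3, 6.04 for SESA5, 5.70 for SESA4, 5.0 for SESA1 and 4.93 for OLEO1. It was 2.54 for PER1, 2.44 for CLO1 (ATS1) and 1.69 for EM1. All 10 read background in Ler control. DOG1 differed by -3.5 and read background on 1 Ler salt array. With the Ler change at its bound the difference was 7.94 for SESA3, 5.39 for CRA1, 5.33 for CRU3, 3.89 for SESA5, 3.36 for OLEO1, 3.25 for SESA1, 1.98 for PER1, 1.34 for EM1 and 0.71 for CLO1, which is under 2-fold. SESA4 read background on 3 of the 4 Sha arrays as well and has no such bound.

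In the jasmonate and ethylene lists VSP2 differed by 4.66 and VSP1 by 4.15, in the opposite direction to AOC2 (-3.64), ERF1 (-1.94) and AOC1 (-1.70). In the salicylic acid list 4 of 12 genes had a called difference, beside 8.07% of all tested loci. All were more positive in Ler, among them PR5 (1.26), FMO1 (1.22) and WRKY70 (1.06).

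Stress genes with a more negative value in Ler were HSFA6B (-2.96), ATHSP22.0 (-2.15), APX2 (-1.97), HAI3 (-1.73), LEA7 (-1.63), LTP4 (-1.45), DREB2A (-1.4), LTP3 (-1.24), MYB102 (-1.16) and ABI5 (-1.02), while CBF2 was at 1.37. The ABA hydroxylase CYP707A2 differed by -1.52 and FSD1 by -1.38.

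In primary metabolism and senescence the values were 3.18 for DIN11, 1.80 for ALDH2B7, 1.74 for BAM5, 1.02 for MLS and 1.0 for TPPD, and -2.53 for GolS4, -2.02 for SAG29, -1.36 for BCAT-2 and -1.11 for LHCB2.3. In secondary metabolism they were 1.55 for MYB122, 1.52 for both MYB90 and MYB113 and 1.38 for CYP79F2. MYB90 and MYB113 read background in Ler control, and at its bound the difference of MYB90 was 0.35, under 2-fold. MYB113 also read background on 1 Sha control array.

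For transport and metal nutrition HAK5 differed by 1.66 and BHLH101 by 1.14, and negative values were found for PHT1;1 (-1.72), PHT1;2 (-1.63), SKOR (-1.22), FER1 (-1.20) and NAS2 (-1.19). In growth, clock and flowering they were 1.63 for SPL5, 1.29 for EXPA10, -1.89 for TSF, -1.64 for ELF4, -1.57 for IAA6, -1.36 for FLC, -1.11 for LHY and -1.10 for FT. TSF read background on all 4 Sha arrays, so its Sha change is not a measured one, and FLC on 1 Ler salt array. Among the largest changes over all loci AT5G50360 differed by -1.90, CSLG2 by -1.5, AT2G35070 by -1.35, AT5G46900 by -1.25 and AT1G13650 by -1.16.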

How the results depend on the processing

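Counted by locus in place of probe, 2747 rose, 3198 fell and 1677 differed from Sha. Normexp background correction gave 2675 lower probes and 623 differences, and an adjusted p under 0.01 gave 1833 differences. The share of called probes that were higher, 45.4%, was 48.2% with quantile normalization, 48.3% with median scaling, 54.0% with normexp, 44.3% with no background filter and 40.8% for probes well above background on all 4 Ler arrays. Leaving out 1 Ler array at a time gave 4128 to 4211 higher probes, 4824 to 5156 lower, 2176 to 2817 differences and a share of 45.0% to 46.2%, where a group left with 1 array was assumed to vary like the other groups. With the replicate number as a block 4215 probes rose, 5154 fell and 3457 differed. Slide and scan day coincide with that number in Ler and gave the same counts. Deviations of same-numbered arrays from their group means correlated with r = 0.26 in Ler and 0.53 in Sha, with 2 pairs per ecotype. The labels do not say that a number marks shared material, but same-numbered arrays of an ecotype shared a slide and a scan day, so number, slide and scan day cannot be told apart. The cause of these shifts was not tested. Of 239 called genes named above, 21 lost their call with normexp, 4 with quantile normalization, 2 with median scaling and 1 or 2 when an array was left out. Besides the 21, LEC2 also lost its call with normexp, and it alone changed direction, to 0.26. Among named genes without a call, ABF1 gained one with median scaling and RBCS1A with normexp. HSP101 changed by 1.13 without Ler salt replicate 2, and PYK10 by -1.05 without Ler control replicate 2. Dim probes and the dim array of Ler control replicate 1 limit the precision of low levels.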

Other observations

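Families that the report does not describe were counted by their symbols, chosen after the values were seen, beside 13.2% of tested loci that rose and 15.4% that fell. Among glycosyltransferases named UGT, which attach sugars to small molecules, 22 of 55 rose and 8 fell (median log2 change 0.55). The largest measured rise was 8.65 for UGT76E12, which read background on 1 of the 2 Ler control arrays. Of 21 factors with an ERF symbol 12 rose and none fell (median 1.28). MAPKKK genes, which open kinase cascades, rose in 6 of 13 cases with no fall, up to 6.92 for MAPKKK21. Of 63 WRKY factors 20 rose and 9 fell (median 0.31), and of 30 BGLU beta-glucosidases 12 rose and 3 fell.

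Fasciclin-like arabinogalactan proteins (FLA) fell in 10 of 15 cases and rose in 1 (median -1.34), with FLA12 at -3.61, and other arabinogalactan proteins (AGP) fell in 12 of 26 and rose in 3. Laccases, which polymerise lignin, fell in 8 of 13 cases and none rose (median -1.32). Of 36 UMAMIT amino acid carriers 12 fell and 6 rose. Receptor-like proteins (RLP) were spread over both directions, with 12 of 45 higher and 10 lower (median -0.08), and so were cytochromes P450, with 43 of 171 higher and 46 lower (median -0.27).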
